A study of Bos taurus with 6 samples.

Results

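The genes described here encode the protein subunits of the cytosolic ribosome, measured by array in longissimus thoracis muscle, the long muscle of the back, of 6 castrated male Japanese Black cattle. Members were the probe sets whose platform annotation gives exactly 1 gene symbol made of RPL or RPS, digits and at most the ending A, X, L or AL, together with RPLP0, RPLP1, RPLP2 and RPSA. The rule found 87 probe sets for 64 genes among 24016 non-control probe sets and 9155 annotated genes. It used no measured value, though the members were chosen with earlier results of these data known. Of the 64 genes, 40 belong to the large subunit (53 probe sets) and 24 to the small subunit (34 probe sets). Of the 80 bovine genes that carry such a symbol in the RefSeq annotation ARS-UCD2.0, 16 were not analysed here, among them RPLP1, RPS27A, RPL10L and RPL36AL. For 1 value per gene, the probe set with the highest mean over the 6 arrays was taken.

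In the supplemented group, 3 steers were given oral vitamin A weekly, 296.8 IU for each kg of weight. In the restricted group, another 3 steers, this supplementation was withheld. All 6 were Japanese Black steers that entered at 13 to 14 months of age and were fattened for 7 months at a planned gain of 1.0 kg per day, and no genetic manipulation is given in the labels. Supplemented steers 1, 2 and 3 were 600, 612 and 618 days old and restricted steers 1, 2 and 3 were 589, 595 and 611 days old. Each array holds another steer of its group. The muscle fibre genes ACTA1, CKM, MYH1, MYH7, TNNT3, TNNT1, MYL1, DES and MB had deposited values from 9.71 to 12.67, on a scale that ends at 12.67, so the labelled tissue showed its defining markers.

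The ribosome translates messenger RNA into protein. Its small subunit reads the message and its large subunit joins the amino acids, and each carries one copy of most of its proteins on a scaffold of ribosomal RNA. Messages of ribosomal proteins begin with a pyrimidine tract through which their translation follows growth signals of the mTOR pathway, so that the subunits are made in balance. In skeletal muscle and heart, RPL3L can take the place of RPL3, which sits near the catalytic centre of the large subunit.

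The deposited values are taken as log2 values and differ very little between arrays, so differences are given in millionths of a deposited log2 unit (1 millionth is 1e-06) and in within-group standard deviations (SDs) of the same probe set, and are not read as fold changes. Over the 6 arrays the highest and the lowest value of a ribosomal protein gene lay a median of 8.25 millionths apart, against 1.23 millionths over all genes. RPL10A had the widest range, 218 millionths, and RPS19 the narrowest, 0.0250 millionths. Diets were compared in each probe set with limma and Benjamini-Hochberg adjustment over all 24016 probe sets. Arrays hold signals of tissue pieces, so that fewer cells of a type and less RNA per cell cannot be told apart.

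No ribosomal protein probe set differed between the diets past the adjusted threshold of 0.05, against 0.00416% of all probe sets, which is 1 probe set, of the retinal reductase DHRS3. With age as a covariate or the replicate number as a block, 0 of all probe sets passed. The smallest limma adjusted p among the 87 was 1.000. At an unadjusted limma p under 0.05, 6 of the 87 probe sets (6.90%) were higher in restricted steers and 0 were lower, against 1.91% and 2.17% of all probe sets. The groups did not overlap in 7 of the 87 probe sets, all of them higher in restricted steers. That is 8.05% of the members in this direction, where 4.12% of all probe sets were higher without overlap and 4.64% lower. Counted in both directions, the share of 8.05% stood beside 8.76% of all probe sets.

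The sign of the differences was uneven. Of the 64 genes, 53 had a higher mean in restricted steers and 11 a lower one, so 82.8% were higher, against 49.5% of all genes. With array medians equalized, that is, with a constant added to each array so that all have 1 median, 31 of the 64 were higher, against 10.8% of all genes. Moving each array instead by the median deviation of its probe sets, an alternative chosen after seeing the data, left 53 of the 64 higher, against 50.8% of all genes. That moved the arrays by at most 0.0137 millionths against each other, so it could hardly change the count of members. Quantile normalization left 60 of the 64 equal in both groups, 1 higher and 3 lower, against 16.1% of all genes higher, and 1 probe set without overlap, against 0.212% of all. The median difference was 0.755 SDs, with quartiles of 0.290 and 1.39 SDs, against a median of -0.00787 SDs over all genes, and with array medians equalized these were -0.129 and -0.737 SDs. The groups then did not overlap in 5 of the 87 probe sets (5.75%), against 1.53% of all. Among the 250 other genes with a deposited mean of 8 or more, 60.0% had a higher mean in restricted steers and the median difference was 0.226 SDs. Of the 55 ribosomal protein genes above that level 46 were higher, and of the 9 below it 7 were. The level of 8 was chosen after the values were seen.

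**Figure D1:**
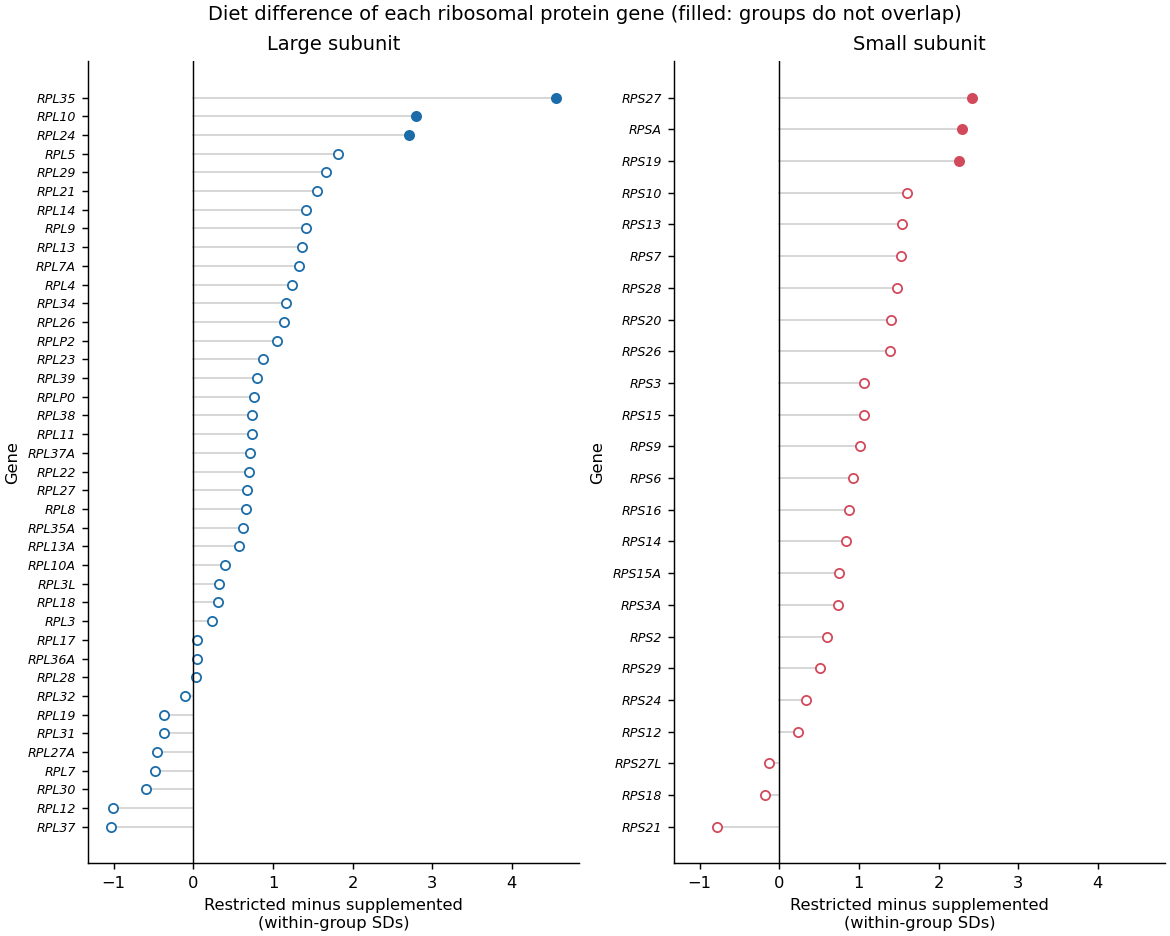
Difference between the diets (restricted minus supplemented, horizontal axis, in within-group SDs, 3 steers per diet) for each of the 40 large subunit genes and 24 small subunit genes; filled points mark genes whose groups do not overlap. In the values as deposited 53 of the 64 points lie right of 0, with RPL35 farthest at 4.56 SDs. With array medians equalized 31 of 64 did, against 10.8% of all genes.

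Restricted steer 2 stood apart from the other restricted steers in these genes. In restricted steer 1 and restricted steer 3, 56 and 55 of the 64 genes lay above their own mean over the 6 steers. In restricted steer 2 only 10 did, fewer than in supplemented steers 1, 2 and 3, where 32, 13 and 18 genes lay above it. Each gene was put on a common scale by taking its deviation from that mean in SDs over the 6 steers. The median deviation was 0.981 in restricted steer 1, -0.644 in restricted steer 2 and 0.885 in restricted steer 3, and 0.000852, -0.495 and -0.474 in supplemented steers 1, 2 and 3. In the 250 other genes with a deposited mean of 8 or more it was -0.392, -0.212 and 0.177 in supplemented and -0.109, 0.283 and 0.0440 in restricted steers 1, 2 and 3, so restricted steer 2 was highest there.

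Restricted steers 1 and 3 both lay above restricted steer 2 in 51 of the 64 genes (79.7%), which was so in 37.3% of all genes. Both lay above all 3 supplemented steers in 35 of the 64 genes (54.7%), which was so in 10.1% of all genes. Restricted steer 3 was the highest of the 6 in 26 genes and restricted steer 1 in 23. Restricted steer 2 was the highest in RPL3L, RPS28 and RPS19, the last with the lowest deposited mean of the 64 genes. These genes and this steer were singled out after their values were seen.

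Without restricted steer 2, 56 of the 64 genes were higher in restricted steers, the median difference was 1.68 SDs, and the groups did not overlap in 42 of the 87 probe sets (48.3%), against 19.4% of all probe sets with the same 5 arrays. Of all genes 50.1% were higher with these arrays. Restricted steer 2 was singled out for being low in these genes. Leaving it out therefore raises their difference and their share without overlap by selection, and the share of all probe sets is no like baseline. Without restricted steer 1 or 3, 50 of 64 genes were higher each time (all genes 49.8% and 48.0%), with medians of 0.563 and 0.502 SDs. The groups then did not overlap in 15 and 12 probe sets (17.2% and 13.8%), against 18.0% and 17.9% of all probe sets. Without supplemented steers 1, 2 or 3, 55, 48 and 49 genes were higher (all genes 47.9%, 49.7% and 51.8%), with medians of 1.03, 0.716 and 0.763 SDs. Probe sets without overlap then numbered 12, 9 and 15 (13.8%, 10.3% and 17.2%), against 18.9%, 18.4% and 19.3% of all probe sets. The median difference over all genes lay between -0.0457 and 0.0486 SDs in these 6 comparisons. In none of them did a ribosomal protein probe set pass the adjusted threshold of limma.

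**Figure D2:**
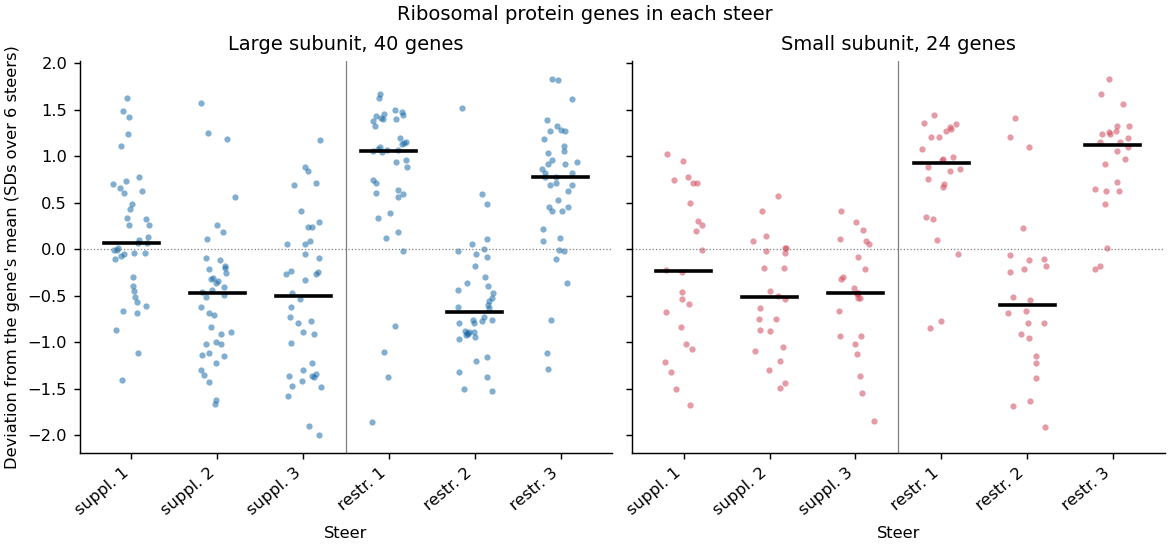
Each point is 1 ribosomal protein gene in 1 steer (horizontal axis; suppl., supplemented; restr., restricted), as its deviation from its mean over the 6 steers in SDs (vertical axis), with black bars for the median over genes. Restricted steers 1 and 3 stand high in both subunits (medians from 0.775 to 1.12), while restricted steer 2 stands at -0.677 and -0.602, below all 3 supplemented medians in both subunits.

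In both subunits most genes had a higher mean in restricted steers in the values as deposited. Of the 40 large subunit genes 32 had a higher mean in restricted steers (80.0%), with a median difference of 0.705 SDs and quartiles of 0.0438 and 1.26 SDs. Of the 24 small subunit genes 21 were higher (87.5%), with a median of 0.976 SDs and quartiles of 0.579 and 1.49 SDs. With array medians equalized, 18 of 40 and 13 of 24 were higher, against 10.8% of all genes. The large subunit median lay 0.271 SDs below the small subunit one, where the SDs are those of single probe sets and not the spread of these medians. The median deviation of the large subunit minus that of the small subunit was 0.301, 0.0449 and -0.0339 in supplemented steers 1, 2 and 3 and 0.137, -0.0751 and -0.347 in restricted steers 1, 2 and 3, so the groups overlapped. No test was made of the difference between the subunits, since the genes share the same 6 steers.

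Among the large subunit genes, RPL35, a protein at the exit of the tunnel through which the new chain leaves, had the smallest unadjusted p of all members. Its deposited value lay -0.324, -0.685 and -1.10 millionths from its mean in supplemented steers 1, 2 and 3, and 0.763, 0.481 and 0.863 millionths in restricted steers 1, 2 and 3. All 3 restricted steers were above all 3 supplemented ones. The difference was 1.40 ± 0.251 millionths (SE) or 4.56 SDs, with a limma unadjusted p of 0.00289 and an adjusted p of 1.000. It became -0.300 SDs with array medians equalized, which moves the groups by 2.22 millionths against each other.

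RPL10, which joins the large subunit late in its assembly, was measured by 2 probe sets, and both were higher in restricted steers without overlap. The one with the higher mean lay -25.6, -60.3 and -116 millionths from its mean in the supplemented steers and 91.6, 9.53 and 101 millionths in the restricted ones. Restricted steer 2 was again the lowest of its group. The difference was 135 ± 39.2 millionths (SE), or 2.80 SDs (limma unadjusted p = 0.0181, adjusted p = 1.000). In the second probe set the difference was 195 millionths or 2.61 SDs, and it had the widest range of the 87, 324 millionths. Both probe sets carry names that mark probes able to match several transcripts, and the 2 are not independent measures of the gene.

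RPL24, a protein at the face where the subunits meet, lay -1.93, -1.32 and -3.54 millionths from its mean in the supplemented steers and 4.26, 0.147 and 2.38 in the restricted ones. The groups did not overlap, and the difference was 4.53 millionths or 2.71 SDs (limma unadjusted p = 0.0203, adjusted p = 1.000). A second probe set of RPL24, with a deposited mean of 5.66 against 9.11 for the first, went the other way, at -0.539 SDs. RPL5, which binds the 5S ribosomal RNA and with RPL11 can restrain the p53 inhibitor MDM2, differed by 9.67 millionths or 1.82 SDs. Its values were -0.309, -7.06 and -7.14 in supplemented and 4.26, -1.25 and 11.5 millionths in restricted steers, and the groups overlapped through restricted steer 2. RPL11 differed by 0.739 SDs, RPL29 by 1.66, RPL4 by 1.24, RPL9 by 1.41 and RPL22 by 0.699 SDs. RPL13A, a subunit that also silences inflammatory messages when it leaves the ribosome, differed by 0.572 SDs. RPL13A, RPL22 and RPL26, the last at 1.14 SDs, turned to lower with array medians equalized.

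**Figure D3:**
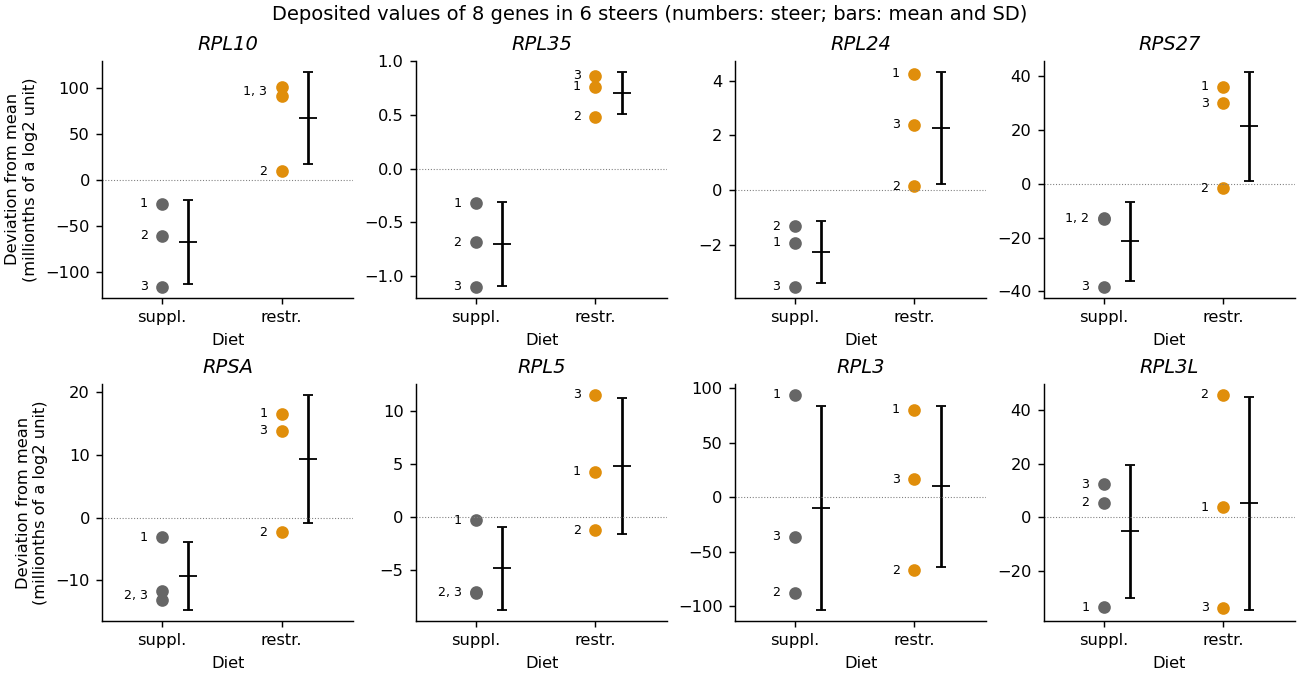
Deposited values of 8 genes in the 6 steers, as the deviation from the mean of the gene (vertical axis, in millionths of a log2 unit, with its own scale in each panel), by diet (horizontal axis); numbers beside points name the steer, and bars give mean and SD of 3 steers. In RPL10, RPL35, RPL24, RPS27 and RPSA the groups do not overlap, while in RPL5, RPL3 and RPL3L they do; RPL35 turned to lower with array medians equalized.

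The stalk of the large subunit, which recruits elongation factors, was represented by RPLP0 and RPLP2. RPLP2 lay -1.88, -27.4 and -6.46 millionths from its mean in the supplemented steers and 39.1, -18.4 and 15.0 in the restricted ones, a difference of 23.8 millionths or 1.05 SDs. RPLP0 differed by 2.64 millionths or 0.763 SDs, with another probe set at 0.948 SDs and the last at -0.0627 SDs. In both genes the groups overlapped.

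RPL3 and its muscle paralogue RPL3L differed in their order of steers. RPL3 lay 94.0, -87.7 and -36.2 millionths from its mean in supplemented steers 1, 2 and 3, and 80.5, -66.9 and 16.3 in restricted steers 1, 2 and 3. RPL3L lay -33.6, 5.50 and 12.4 millionths from its mean in the supplemented steers and 3.72, 45.8 and -33.8 in the restricted ones. In 5 of the 6 steers one of the pair was above its mean and the other below, restricted steer 1 being the exception. RPL3L was highest in restricted steer 2 and low in supplemented steer 1 and restricted steer 3. Between the diets RPL3 differed by 20.0 ± 68.9 and RPL3L by 10.5 ± 27.1 millionths (SE), or 0.237 and 0.316 SDs, each less than 1 SD between steers. Both signs rest on single steers. Without supplemented steer 2, without restricted steer 1 or with age as a covariate RPL3 turned to lower, at -0.235, -0.183 and -0.322 SDs, and RPL3L did so without supplemented steer 1 or restricted steer 2, at -0.113 and -0.386 SDs.

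The large subunit genes with lower values in restricted steers and the smallest p were RPL12 at -1.01 SDs, RPL37 at -1.04 SDs and RPL30 at -0.597 SDs, with limma unadjusted p values from 0.256 to 0.479. RPL12 forms the base of the stalk, and it lay 0.132, -0.0585 and 0.320 millionths from its mean in supplemented and -0.373, -0.241 and 0.223 in restricted steers. RPL37 was measured by 1 probe set at a deposited mean of 5.11, near the bottom of the scale, which starts at 4.81. RPL36A differed by 0.0401 SDs, and by -0.864 SDs with array medians equalized. Its supplemented steers 2 and 3 lay at 1.22 and -1.24 millionths and the other 4 steers within 0.143 millionths of the mean.

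Among the small subunit genes RPS27, a zinc finger protein, lay -13.1, -12.7 and -38.3 millionths from its mean in the supplemented steers and 35.9, -1.69 and 29.8 in the restricted ones. The groups did not overlap, and the difference was 42.7 ± 14.4 millionths (SE) or 2.42 SDs (limma unadjusted p = 0.0299, adjusted p = 1.000). RPSA, a subunit also known as a laminin receptor, lay -3.12, -13.1 and -11.7 millionths from its mean in the supplemented steers and 16.5, -2.31 and 13.8 in the restricted ones. Its difference was 18.6 ± 6.65 millionths (SE) or 2.29 SDs (limma unadjusted p = 0.0357, adjusted p = 1.000). In both genes restricted steers 1 and 3 were far above the rest, and restricted steer 2 lay just above the highest supplemented steer.

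RPS19, a gene mutated in Diamond-Blackfan anaemia, was the other small subunit gene without overlap, at 2.26 SDs. It is counted among the 7 probe sets without overlap. Its deposited mean was the lowest of the 64 genes, below the 5.11 of RPL37 and near the bottom of the scale. Its difference of 0.0137 millionths was the smallest among the 53 genes higher in restricted steers, and its limma unadjusted p was 0.608. It turned to lower with array medians equalized. RPS7, which like RPL5 can bind MDM2, differed by 12.3 millionths or 1.53 SDs, with the supplemented steers at -5.32, -8.53 and -4.66 millionths and the restricted ones at 13.4, -6.73 and 11.8. RPS10 and RPS13 differed by 1.61 and 1.54 SDs and turned to lower with that shift.

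RPS6, the substrate of S6 kinase downstream of mTOR, lay 19.7, -56.7 and -16.5 millionths from its mean in the supplemented steers and 33.8, -26.0 and 45.5 in the restricted ones. The difference of 35.6 millionths or 0.930 SDs did not pass the test (limma unadjusted p = 0.288). RPS3, which forms the entry of the message channel, differed by 18.6 millionths or 1.06 SDs, and its other 2 probe sets by 0.849 and 0.706 SDs. RPS14 differed by 0.833 SDs, and turned to lower with array medians equalized. Lower values in restricted steers were found for RPS21 (-0.785 SDs), RPS18 (-0.185 SDs) and RPS27L (-0.129 SDs), a paralogue of RPS27 that p53 induces. RPS27L ranged widely, with restricted steer 2 at -48.1 and restricted steer 3 at 32.7 millionths, and without restricted steer 2 it was higher, at 1.13 SDs. RPS18 was higher too without that steer, at 0.800 SDs.

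The 48 genes with 1 probe set could not be checked within the array, but 16 genes had several, 39 probe sets in all. In 9 of these 16 genes all probe sets ran in 1 direction, and in RPL24, RPL26, RPL3, RPL9, RPLP0, RPS12 and RPS7 they did not. Of the 23 probe sets that were not the one with the highest mean, 10 (43.5%) were higher in restricted steers, near the 48.3% over all probe sets. Of these 23, 20 had a deposited mean under 6, and 7 of those 20 were higher. Over all 87 probe sets 63 were higher (72.4%). Ribosomal protein genes have many near-identical processed copies in mammalian genomes, so probe sets can also hold signal of such copies. Names ending in _a_at, _s_at or _x_at, which mark probe sets able to match several transcripts, were carried by 15 of the 87 (17.2%), against 6.69% of all probe sets. Without them 42 of 55 genes were higher, against 49.3% of all genes, and the groups did not overlap in 4 of 72 probe sets, against 8.79% of all. The genes RPL24, RPL9 and RPLP0 were then lower, at -0.539, -0.205 and -0.0627 SDs. Those values come from other probe sets, with deposited means of 5.66, 5.46 and 5.48 in place of 9.11, 9.65 and 9.07.

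**Figure D4:**
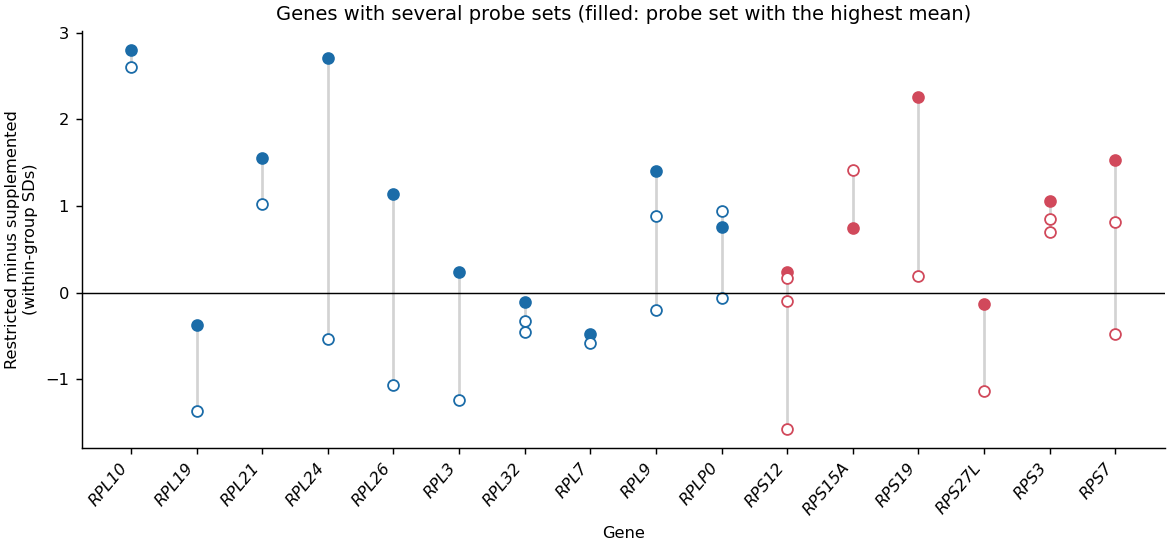
Difference between the diets (vertical axis, restricted minus supplemented, in within-group SDs) for each probe set of the 16 ribosomal protein genes with several (horizontal axis; blue, large subunit; red, small subunit); filled points are the probe sets with the highest mean. In 7 genes the points lie on both sides of 0, in RPL24 from 2.71 to -0.539.

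Other genes of translation were counted in the same way, and none passed the adjusted threshold in either direction. FAU and RACK1, which encode 2 further small subunit components outside the naming rule, had differences of 1.56 and 1.54 SDs. FAU lay -1.91, -3.07 and -0.708 millionths from its mean in the supplemented steers and 4.07, -1.82 and 3.44 in the restricted ones, and RACK1 at -2.38, -0.938 and -5.72 and at 7.14, -2.50 and 4.40. Both thus had restricted steers 1 and 3 highest and restricted steer 2 among the supplemented ones. In the list of ribosome partners, which holds FAU and RACK1, 6 of 8 measured genes were higher (median 0.773 SDs). NAP1L1, a histone chaperone whose message has a pyrimidine tract, was at -3.20 SDs, but at -0.653 SDs with its probe sets averaged. The 2 genes named from each translation list below are those of smallest unadjusted p.

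Of the elongation factors 5 of 8 measured genes were higher in restricted steers (median 0.531 SDs), EEF1E1, a scaffold of the tRNA synthetase complex rather than a working elongation factor, being at -1.37 and EEF2K, the kinase that inactivates elongation factor 2, at -1.04 SDs. Of the initiation factors 23 of 32 were higher (median 0.447 SDs), with EIF3J at 2.57 SDs and EIF4A1, a helicase that unwinds the start of messages, at -2.34 SDs. In ribosome biogenesis 24 of 45 genes were higher (median 0.0419 SDs), among them the helicase DDX47 at 2.77 and the small subunit assembly factor PNO1 at 2.45 SDs. In mTOR and S6 kinase signalling 10 of 25 were higher (median -0.123 SDs), with RPS6KB1, the S6 kinase itself, at -1.38 and LAMTOR3, a scaffold that brings mTOR to the lysosome, at -1.23 SDs. The medians of these 4 lists were nearer to the -0.00787 SDs of all genes than that of the ribosomal proteins, while that of the ribosome partners was not, and whether the lists differ was not tested. With array medians equalized 4 of 8 elongation, 12 of 32 initiation, 5 of 45 biogenesis, 3 of 25 mTOR and 3 of 8 partner genes were higher, against 10.8% of all genes. DDX47 turned to lower with array medians equalized, and EEF2K, NAP1L1, PNO1 and RPS6KB1 changed sign with quantile normalization, which left most probe sets equal on all arrays.

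The mitochondrial ribosome, which translates the messages of the mitochondrial genome, was measured by 67 genes. Of these 45 were higher in restricted steers (67.2%, median 0.247 SDs). With array medians equalized 15 were higher and the median was -0.351 SDs, against 10.8% and -0.737 SDs over all genes. In the values as deposited MRPS14 was at 2.58 and MRPS16 at 1.78 SDs, the latter turning to lower with quantile normalization. The median deviations of this list were -0.901, -0.457 and 0.880 in supplemented steers 1, 2 and 3 and 0.0343, 0.298 and 0.247 in restricted steers 1, 2 and 3. The steer with the highest median was supplemented steer 3 for the mitochondrial ribosome and restricted steer 1 for the cytosolic one, where supplemented steer 3 had -0.474.

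**Figure D5:**
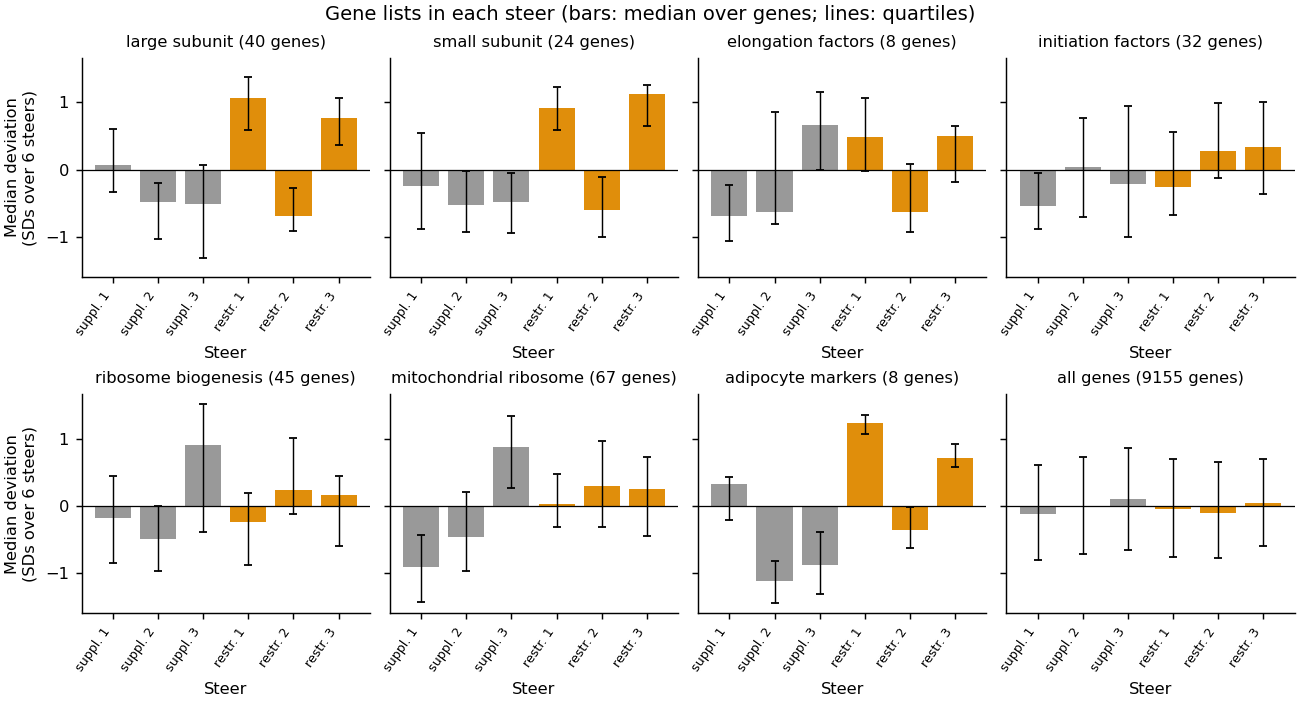
Median over genes of the deviation from the gene's own mean, in SDs over the 6 steers (vertical axis), in each steer (horizontal axis; grey, supplemented; orange, restricted), with lines from the first to the third quartile, for 8 gene lists. Restricted steers 1 and 3 are highest and restricted steer 2 is below 0 in both ribosomal subunits and in the adipocyte markers, whereas the mitochondrial ribosome is highest in supplemented steer 3 and the medians over all genes lie between -0.114 and 0.0957.

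Markers of fat cells followed a partly like order of steers. Restricted steer 2, lowest for the ribosomal proteins, lay above supplemented steers 2 and 3 in these markers. Of the 9 listed adipocyte markers 8 were measured. ADIPOQ, PPARG, LEP and CIDEA had deposited means of 5.21, 5.25, 5.27 and 5.30, near the bottom of the scale, while FABP4 had the highest, 8.17. All 8 had a higher mean in restricted steers (median difference 1.28 SDs). With array medians equalized 7 of 8 did, against 10.8% of all genes, and with quantile normalization 6 of 8, against 16.1%. Their median deviations were 0.320, -1.12 and -0.877 in supplemented steers 1, 2 and 3 and 1.23, -0.353 and 0.712 in restricted steers 1, 2 and 3, so restricted steers 1 and 3 were highest there too. Their mean deviation ran from -0.932 to 0.0945 in supplemented and from -0.239 to 1.16 in restricted steers. Red cell markers, 4 of 6 measured, had median deviations of 1.00, -1.17 and 0.678 in restricted steers 1, 2 and 3, but of -0.258, 0.306 and -0.350 in the supplemented ones, and stood at deposited means of at most 5.04. Smooth muscle markers were higher in restricted steers in 5 of 5 genes (median 0.957 SDs; 4 of 5 with array medians equalized) and endothelial markers in 5 of 6 (0.882 SDs; 3 of 6 with array medians equalized). Muscle fibre markers were higher in 2 of 9 (-0.305 SDs). Among all these markers, the groups did not overlap in the adipocyte genes CFD (6.35 SDs) and CIDEA (1.78 SDs), both higher in restricted steers. Nor did they in the myosin gene MYH1 (-3.46 SDs) and the nerve gene MBP (-3.15 SDs), both lower. None of them passed the adjusted threshold, and 4.12% of all probe sets were higher and 4.64% lower without overlap. Fibroblast markers were higher in 2 of 6, macrophage and lymphocyte markers in 2 of 8, red cell markers in 3 of 4 (0 of 4 with array medians equalized) and nerve markers in 1 of 2. By steer, smooth muscle markers were highest in restricted steer 1, at 1.90, with restricted steer 3 at -0.195, and fibroblast markers in supplemented steer 1, at 1.81. Endothelial markers stood at 1.26 in restricted steer 1 and -0.569 in restricted steer 3, macrophage and lymphocyte markers at 1.21 in supplemented steer 2, nerve markers at 0.875 in supplemented steer 1, and muscle fibre markers at 0.893 in supplemented steer 3. The part of fat cells, or of any of these cells, in the ribosomal protein values was not tested.

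RNA quality was read from 6 housekeeping transcripts with 3 prime and 5 prime control probe sets. By an exact permutation test (two-sided), the 3 prime minus 5 prime difference between the diets had p values of 0.400 in eIF-4E and up to 0.900 in actin, where 3 steers against 3 cannot go below 0.1. For eIF-4E it lay -2.10, -7.38 and -1.09 millionths from its mean in supplemented and -4.75 and -0.699 in restricted steers 1 and 3, and restricted steer 2 was the highest of the 6. In the other 5 transcripts restricted steer 2 was at neither end of the order. In Cyph and GST restricted steer 1 was highest, at 7.64 and 19.2 millionths, and supplemented steer 2 lowest, at -8.14 and -21.4. Restricted steer 2 was next lowest in both, at -2.56 and -5.61 millionths. In actin, ef1a and gapd supplemented steer 3 was highest instead. The part of RNA quality in the ribosomal protein values was not tested. Restricted steers were 598.3 ± 11.4 and supplemented ones 610.0 ± 9.17 days old (SD, n = 3 each), with p = 0.200 by the same exact test. With age as a covariate 50 of the 64 genes were higher, against 52.5% of all genes, and the median was 0.734 SDs.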

How the data were processed

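One table with 24128 probe sets and 6 arrays was used. Its values are taken as log2 values because they run from 4.81 to 12.67 in the probe sets tested. How the authors made these log2 values before deposition (background correction, normalization, summarization) is not given in the sources used here. RNA was labelled from 100 ng of total RNA with a kit for 3 prime expression arrays, per the labels' protocols. The 112 control probe sets were left out of the tests, and 2 further probe sets that were equal on all arrays gave no p-value. Symbols came from a platform annotation table, and all 64 member gene identifiers matched RefSeq ARS-UCD2.0 with 0 symbols changed. No coordinates or sequences are given.

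limma 3.58.1 in R 4.3.3 (lmFit, eBayes) compared restricted with supplemented steers in 24016 probe sets, with Benjamini-Hochberg adjustment and a threshold of 0.05. A difference in SDs is the fitted difference over the residual SD, with 4 residual degrees of freedom. The script was tested on simulated data. Lists are described by counts and medians without a test. Steers were compared as separate animals, and their number limits the precision. Depth is not defined for arrays. The steers share replicate numbers, and ages rose with the number in both groups. Deviations of same-numbered steers correlated at 0.037, 0.015 and 0.015, against -0.021 to 0.006 for steers of unlike number. These small values do not settle whether the numbers pair the steers. The main fit used no pairing, with the replicate block as an alternative.

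Alternatives were other scalings of the arrays, age or the replicate number in the fit, an intensity trend, array weights, a filter on low values, other ways to choose probe sets, and each steer left out.

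Named genes were those of each subunit with the smallest unadjusted p (5 higher, 3 lower) and a list of well-known members. Genes whose probe sets disagreed, the widest and narrowest ranges, and the 2 of smallest unadjusted p in each other translation list were also named. Members and lists were chosen with earlier results of these data known.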

Additional observations from a re-analysis of the deposited data

How the results depend on the processing

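The counts and median difference of the ribosomal protein genes kept their direction when any single steer was left out: from 48 to 56 of 64 genes, 28 to 33 of 40 large and 19 to 23 of 24 small subunit genes were higher, the median ran from 0.502 to 1.68 SDs, and the large minus small subunit difference from -0.387 to -0.0269 SDs. Probe sets without overlap then numbered from 9 to 42 of 87, against 17.9% to 19.4% of all probe sets, since fewer arrays overlap less often. They were 12 without supplemented steer 1, 9 without supplemented steer 2, 15 without supplemented steer 3 or restricted steer 1, 42 without restricted steer 2 and 12 without restricted steer 3, and 4 of 72 without probe sets that can match several transcripts. The 42 came from leaving out the steer singled out for being low in these genes, which raises the count by selection. With array medians equalized 31 of 64 genes, 18 of 40 and 13 of 24 were higher and the median turned to -0.129 SDs, against 10.8% and -0.737 SDs over all genes. That shift rests on the probe sets in the middle of each array: the medians differed by 8.88 millionths without and 1.75 millionths with the control probe sets. Shifting each array by its median deviation, chosen after seeing the data, moved the arrays by at most 0.0137 millionths against each other and gave 53 of 64 genes and 0.758 SDs. Quantile normalization left 15489 probe sets equal on all arrays and 60 of the 64 genes at 0, with 1 higher, 1 of the large and 0 of the small subunit, and 1 probe set without overlap. With the replicate block 53 genes were higher, the median was 0.999 SDs and 0 probe sets passed, so the block changed no call of a member, while the call of DHRS3 was lost with the block and with age. No member was called at the adjusted threshold under the alternatives tested, which leave out the mean of probe sets per gene, where calls were not counted. Overlap has no value under the fits with age, block, trend or weights.

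Some named genes changed sign, and the cause was not tested. Equalizing array medians moved the groups by 2.22 millionths against each other, more than the difference of each gene that turned with it. With array medians equalized DDX47 was at -0.366, RPL13A -0.589, RPL22 -0.0844, RPL26 -0.649, RPL35 -0.300, RPL36A -0.864, RPS10 -0.285, RPS12 -0.313, RPS13 -0.560, RPS14 -0.423 and RPS19 -0.742 SDs. With quantile normalization EEF2K and NAP1L1 were at 0.816, MRPS16 and PNO1 at -0.816 and RPS6KB1 at 0.577. With age RPL3 was at -0.322, RPL36A at -0.226 and RPS27L at 0.0199, and with array weights the last 2 at -0.0869 and 0.0123. With probe sets averaged per gene RPL26 was at -0.262 and RPS6KB1 at 0.798, and without probe sets that can match several transcripts RPL24 was at -0.539, RPL9 at -0.205 and RPLP0 at -0.0627. These values of RPL24, RPL9 and RPLP0 come from other probe sets of lower mean. With 1 steer left out, RPL10A ran from -0.359 to 0.989, RPL13A from -0.261 to 1.27, RPL3 from -0.235 to 1.13, RPL36A from -1.10 to 1.32, RPL3L from -0.386 to 1.13, RPS12 from -0.305 to 1.11, RPS18 from -0.526 to 0.800 and RPS27L from -0.788 to 1.13 SDs.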
